A study of Mus musculus with 71 samples.

Results

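The genes described here are the potassium channel genes of the mouse, the channel subunits and their accessory proteins whose symbols begin with Kcn. They were taken by symbol alone, without regard to their values: every probe set annotated with exactly 1 such symbol, leaving out Kcne2, Kcnj13 and Kcnq1ot1, with each gene read from its probe set of highest mean signal over the 71 arrays. This gave 81 of the 18193 genes on the arrays. By symbol they comprise 31 voltage-gated subunits, 14 accessory subunits, 14 inward rectifiers and 12 genes of the 2-pore family. A further 8, beginning with Kcnma, Kcnn, Kcnt or Kcnu, are grouped here as calcium- or sodium-activated, by symbol and not by what gates each. The remaining 2, Kcnmb4os1 and Kcnmb4os2, are antisense RNAs and not channels.

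Messenger RNA was measured in the brains of mice 10 to 14 weeks old that lack GLP (gene Ehmt1) or G9a (gene Ehmt2), partner enzymes that methylate histone H3 at lysine 9, adding 1 or 2 methyl groups. Total RNA came from hippocampus, hypothalamus, striatum or cortex of Camk2a-Cre; GLPfl/fl mice, against sex-matched littermate controls, and of Camk2a-Cre; G9afl/fl mice, against littermate controls of their own. The Camk2a promoter drives Cre in forebrain neurons after birth, so other cells of these tissues, and the earlier life of the neurons, keep the enzyme. These 16 groups held 59 arrays: 4 in each group but the G9a hippocampus controls (3) and the G9a cortex mutants and controls (2 each). A further 12 arrays, in 4 groups of 3, held polyribosome mRNA of striatal medium spiny neurons, the projection neurons of the striatum, pulled down through a tagged ribosome (bacTRAP) made in cells with the dopamine receptor Drd1 or Drd2. Each of these was a pool of 5 mice, Drd1-Cre; Drd1-bacTRAP; G9afl/fl against Drd1-bacTRAP; G9afl/fl, and Drd2-Cre; Drd2-bacTRAP; G9afl/fl against Drd2-bacTRAP; G9afl/fl, so the pool controls carry the floxed allele and the tagged ribosome too. The labels do not say whether 1 mouse gave several regions. Precision is limited by how many arrays there are.

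Potassium channels let potassium ions leave neurons, and in doing so set the resting potential and end the action potential. Voltage-gated subunits join in fours, some of them silent alone, and accessory subunits change their gating or trafficking. Inward rectifiers and 2-pore channels carry current near rest, while calcium-activated channels follow bursts of firing. Striatal projection neurons are known for strong inward rectifier and A-type currents that hold them silent between inputs.

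Levels are log2 intensities with each array's median at 0, and a level below 0 is dim but was not shown to be absent. Changes are log2 differences of group means with the standard error (SE) of limma, a linear model in which each gene has 1 spread shared by the groups fitted. A gene is called where its p, Benjamini-Hochberg adjusted over all genes tested in that comparison, is under 0.05. To be tested, a gene had to exceed the array median on a number of the compared arrays no lower than the size of the smaller side. Of the 81 genes, 41 had a mean above the array median in all 20 groups, 23 in some of them and 17 in none. Of the voltage-gated genes 29 of 31 were above it in at least 1 group, of the accessory genes 11 of 14, of the inward rectifiers 10 of 14, of the 2-pore genes 7 of 12 and of the calcium- or sodium-activated genes 6 of 8.

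The targeted genes and the arrays were checked first. Ehmt1 was lower in GLP mutants by 0.58 in hippocampus, 0.46 in striatum and 0.76 in cortex (log2, highest limma adjusted p = 0.0177), and its difference in hypothalamus, -0.16, was not called (adjusted p = 0.711). Ehmt2 was lower in G9a mutants in all 4 regions, by 1.02 to 1.76. In Drd1 pools it stood at 5.01, 1.56 and 4.93 in mutants and 6.22, 5.93 and 5.49 in controls, while the Drd2 pools labelled mutant stood at 6.04, 5.91 and 5.99 and their controls at 5.18, 6.07 and 6.93, which goes against the label mutant. No source used here places these probe sets inside or outside the deleted exons. Correlation of an array with the mean of the rest of its group was at least 0.977 except in 5: Drd1 mutant 2 (0.892), Drd2 control 1 (0.952), G9a hypothalamus mutant 2 (0.957) and Drd1 mutants 3 and 1 (0.960 and 0.965). In the GLP hippocampus 9 of 10 tested choroid plexus markers, Kcne2 and Kcnj13 among the 10, were called higher in mutants. The mean marker level was 4.39 ± 0.35 in mutants and 1.76 ± 1.25 in controls (SD, n = 4 each). In bulk tissue, fewer cells of a type and less RNA per cell cannot be told apart.

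The main question was whether loss of either enzyme changed these genes. Of the 61 channel genes tested in at least 1 of the 8 tissue comparisons, 7 were called in any of them. Of all genes tested in all 8 tissues 7.67% were, which is not the same kind of set. Kcng1 and Kcnk10, among the 7, were not tested in all 8. Of the 7, 5 were called once. Kcna4 was called in 2 tissues and Kcna6 in 5. Kcna6, a voltage-gated subunit of the Shaker group that joins delayed rectifier channels of axons, was higher in mutants than in controls in all 8 tissues, by 0.26 to 0.99 (mean 0.56). It rose in the GLP hypothalamus, striatum and cortex and in the G9a hippocampus and striatum.

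The 250 bases before the annotated start of Kcna6 are shown with those of Kcna4, Kcnc4 and Kcnh1, the other voltage-gated genes called in the G9a striatum. They are RefSeq sequences of GRCm38.p6, written 5′ to 3′ on the gene's strand, with capitals marking matches on either strand to GGGCGG (GC box) or CCAAT.
Kcna6, chr6:126740675-126740924, minus strand: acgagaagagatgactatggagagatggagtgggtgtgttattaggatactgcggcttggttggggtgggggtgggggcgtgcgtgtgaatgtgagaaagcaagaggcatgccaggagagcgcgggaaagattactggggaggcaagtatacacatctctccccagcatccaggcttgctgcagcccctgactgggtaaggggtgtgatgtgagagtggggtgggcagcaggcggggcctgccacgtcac
Kcna4, chr2:107290339-107290588, plus strand: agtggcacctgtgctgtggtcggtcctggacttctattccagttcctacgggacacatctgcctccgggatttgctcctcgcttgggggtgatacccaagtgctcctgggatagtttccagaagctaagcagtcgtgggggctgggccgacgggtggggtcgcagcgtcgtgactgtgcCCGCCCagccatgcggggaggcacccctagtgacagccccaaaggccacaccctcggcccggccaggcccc
Kcnc4, chr3:107458899-107459148, minus strand: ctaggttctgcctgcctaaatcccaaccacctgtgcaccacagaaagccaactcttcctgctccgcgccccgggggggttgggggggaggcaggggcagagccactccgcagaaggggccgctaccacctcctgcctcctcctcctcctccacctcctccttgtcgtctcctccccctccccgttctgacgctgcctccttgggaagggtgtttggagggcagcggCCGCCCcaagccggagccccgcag
Kcnh1, chr1:192190527-192190776, plus strand: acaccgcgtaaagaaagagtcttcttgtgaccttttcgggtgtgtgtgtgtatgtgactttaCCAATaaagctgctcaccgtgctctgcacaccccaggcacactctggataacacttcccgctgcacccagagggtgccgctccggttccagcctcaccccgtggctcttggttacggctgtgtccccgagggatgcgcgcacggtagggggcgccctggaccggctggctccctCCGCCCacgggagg

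TATAAA and CACGTG were searched too and none of these 4 windows holds them. No match says only that the letters are not in the window. The Kcna6 window has no match to any of the 4 motifs and 8 CG dinucleotides, where Kcna4 has 14, Kcnc4 12 and Kcnh1 17, and the median over all 32841 promoters of the table is 6. GGGCGG is in Kcna4, Kcnc4 and Kcnh1 and in 32.7% of all promoters, and CCAAT in Kcnh1 and in 33.9%. Of the 81 genes 61 matched the promoter table with 85 promoters, of which 45.9% hold GGGCGG and 2.35% TATAAA (12.4% of all promoters). No methylation or binding was measured at these windows.

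The Kcna6 change was largest in the G9a striatum. There it stood at 3.19, 3.34, 2.97 and 3.10 in mutants, against 2.25, 2.15, 2.19 and 2.07 in controls. Every mutant lay well above every control, a rise of 0.99 (SE 0.11; 1.98-fold, adjusted p = 1.23e-09). In this tissue 5 of 51 tested channel genes were called, where 3.02% of all genes were: 3 were higher (1.87% of all genes) and 2 lower (1.15%). On arrays high and low in Xist, an RNA of female cells, Kcna6 differed by 1.07 and 0.91 here, by 0.82 and 0.51 in the G9a hippocampus, and by 0.47 and 0.05 in the G9a hypothalamus, with 1 or 2 arrays a side. The G9a cortex arrays were all low in Xist, and all GLP arrays were high in it (5.17 to 7.31).

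In the GLP striatum Kcna6 stood at 2.96, 2.84, 2.94 and 2.63 in mutants, against 2.03, 2.17, 2.17 and 2.29 in controls. The groups did not overlap, and the rise was 0.68 (SE 0.11; 1.60-fold, adjusted p = 1.56e-05). Its levels in the GLP hypothalamus were 3.02, 2.84, 3.04 and 3.15 in mutants, against 2.32, 2.28, 2.45 and 2.53 in controls. Again the groups were apart, with a rise of 0.62 (SE 0.11; 1.54-fold, adjusted p = 0.000149). With these 2 groups alone in the fit the call was lost (adjusted p = 0.0583).

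In the GLP cortex Kcna6 stood at 2.74, 2.74, 2.70 and 2.67 in mutants, against 2.03, 2.27, 2.17 and 2.31 in controls, a rise of 0.51 (SE 0.11, adjusted p = 0.0015). The mutants lay close together above all controls. In the G9a hippocampus it stood at 2.55, 2.64, 2.37 and 2.69 in mutants and at 1.77, 2.05 and 1.98 in controls, a rise of 0.63 (SE 0.11, adjusted p = 0.00019). There 2 of 5 cortex markers, 1 of 6 for striatum and 1 of 5 for choroid plexus were called higher in mutants, and their part was not tested. The median changes of these lists were -0.03, 0.11 and 1.25. The other cortex markers were lower in mutants: Tbr1 (3.90 in mutants and 4.08 in controls), Rorb (2.66 and 2.69) and Fezf2 (3.57 and 3.94). Kcna6 was the 1 channel gene called in each of these tissues, of 55 tested in both, where 1.54% and 2.72% of all genes were called (higher 1.31% and 2.25%, lower 0.233% and 0.469%).

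The 3 tissues without a call had the same sign. In the GLP hippocampus Kcna6 stood at 2.62, 2.35, 2.31 and 2.54 in mutants and at 2.09, 2.15, 2.01 and 2.20 in controls, a difference of 0.34 (SE 0.11, adjusted p = 0.086). In the G9a cortex it stood at 2.45 and 2.44 in mutants and at 2.03 and 1.97 in controls, 0.44 (SE 0.15, adjusted p = 0.39, or 0.0397 with these 2 groups alone in the fit). Both pairs of groups were apart. In the G9a hypothalamus it stood at 2.85, 3.18, 2.41 and 2.68 in mutants and at 2.64, 2.46, 2.38 and 2.60 in controls, where the groups overlap and the difference was 0.26 (SE 0.11, adjusted p = 0.185). Mutant and control arrays were apart in 7 of the 8 tissues; between 2.91% and 45.7% of all genes were apart in a single tissue, the highest share in the G9a cortex with 2 arrays a side.

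**Figure D1:**
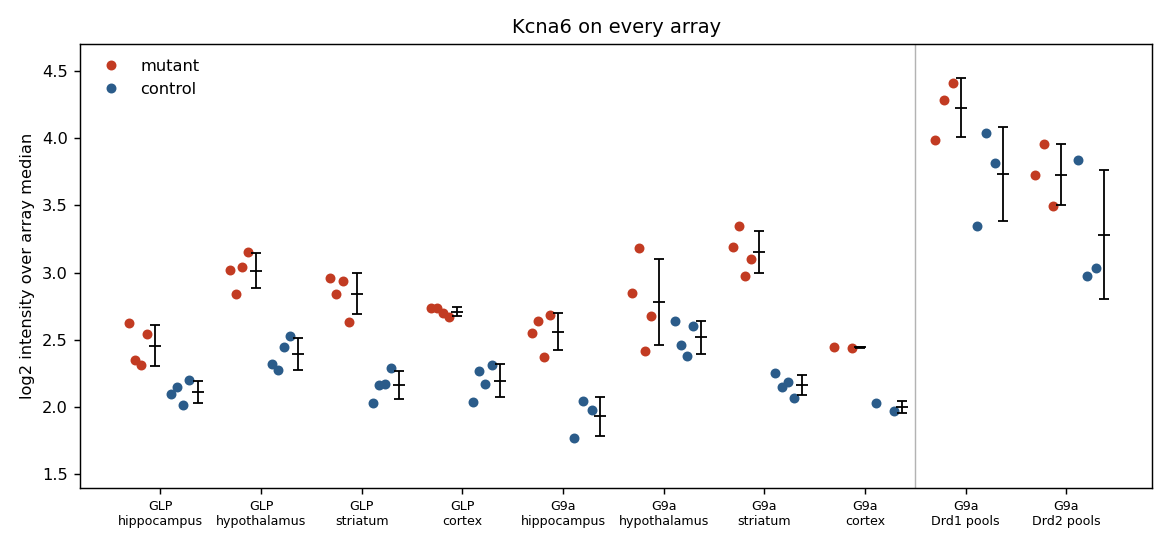
Level of Kcna6 (log2 intensity over the array median) on every array, mutants in red left of controls in blue, in the 8 tissues and, right of the line, the Drd1 and Drd2 pools; bars give the mean ± SD of each group. The 4 G9a striatum mutants sit between 2.97 and 3.34, above their controls at 2.07 to 2.25, and the G9a hypothalamus and both kinds of pool overlap.

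Kcna6 has 3 probe sets, and only the one used lay clearly above the array median (mean 2.70). The second (mean 0.04) was lower in mutants in 6 of the 8 tissues, by 0.91 in the G9a striatum and 0.57 in both the GLP hippocampus and the GLP cortex. The third (mean -2.39) differed by -0.17 to 0.29. Fitted singly with its p adjusted over all probe sets, the one used was called in the same 5 tissues and neither of the others in any, though of the tissues the second could be tested in the GLP cortex alone and the third in none. With the mean of the 3 the gene was tested in 4 of the tissues and called in none: 0.07 in the G9a striatum (adjusted p = 0.873) and -0.014 in the GLP cortex. No source used here gives the part of the transcript that each reads. Its neighbours on chromosome 6 include Kcna1, the first subunit of the same group, and Kcna5. Kcna1 differed by -0.32 to -0.05 and Kcna5 by -0.38 to 0.45 across the 8 tissues, and neither was called.

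The size of the Kcna6 change differed among the 4 regions for G9a (limma F = 8.30, adjusted p = 0.0153), the 1 of 62 tested channel genes so called, where 1.37% of all genes were. Without G9a striatum mutant 2 that call was lost (adjusted p = 0.0638), and fitted on the G9a groups alone adjusted p was 0.183. The G9a cortex arrays were all low in Xist where the other G9a regions held both kinds, and the part of sex was not tested. Among the 4 regions of GLP the F was 1.94 (adjusted p = 0.983) and 0 of 59 channel genes were called (1.08% of all genes; 4 channel genes at an unadjusted p under 0.05), the smallest p being those of Kcnip4, Kcng1 and Kcnk10 (adjusted p = 0.0543, 0.0737 and 0.482). With the replicate number as a block 2 were called, Kcng1 (adjusted p = 0.00161) and Kcnip4 (adjusted p = 0.042). Tested over all 4 regions at once, the GLP and G9a changes were called different for 0 of 62 (0.0849% of all genes; 4 at an unadjusted p under 0.05), Kcna6 having the smallest p (adjusted p = 0.688).

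The other calls lay in the hypothalamus and striatum. Kcna4, the subunit of a rapidly inactivating A-type channel, fell in the G9a striatum and the GLP hypothalamus. In the G9a striatum it stood at 4.78, 4.83, 4.63 and 4.55 in mutants, against 5.40, 5.28, 5.20 and 4.92 in controls. Every mutant lay below every control, a change of -0.50 (SE 0.13, adjusted p = 0.0154). Its levels in the GLP hypothalamus were 3.50, 3.38, 3.37 and 3.72 in mutants, against 4.11, 4.17, 4.02 and 3.68 in controls, where 1 mutant lay above 1 control. The change was -0.50 (SE 0.13, adjusted p = 0.0325), and 3 of 49 channel genes were called there, 2 higher and 1 lower, where 1.01% of all genes were (0.824% higher and 0.191% lower).

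The third call in the GLP hypothalamus was Kcnk10, a 2-pore channel opened by stretch and lipids. It stood at 1.17, 1.17, 0.89 and 1.06 in mutants, against 0.66, -0.34, 0.75 and 0.34 in controls, a rise of 0.72 (SE 0.19, adjusted p = 0.0338). The groups did not overlap, and control 2 lay lowest. Without that control the change was 0.49 (adjusted p = 0.465).

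In the GLP striatum the second of 2 calls among 50 channel genes, both higher (1.67% of all genes, 1.15% higher and 0.52% lower), was Kcng1, a silent subunit that works only in partnership with another voltage-gated family. It stood at 2.69, 2.72, 3.00 and 2.81 in mutants, against 1.85, 1.90, 2.04 and 2.05 in controls. The mutants lay clear of the controls, a rise of 0.85 (SE 0.21, adjusted p = 0.017). In the G9a striatum Kcng1 differed by 0.59 with the groups apart and without a call (adjusted p = 0.142).

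The other 3 calls were in the G9a striatum. Kcnc4, a subunit of fast-spiking-type channels that inactivates quickly, stood at 3.25, 3.50, 3.32 and 3.14 in mutants, against 2.08, 2.37, 3.03 and 2.31 in controls, a rise of 0.85 (SE 0.23, adjusted p = 0.0232). The groups were apart, with control 3 nearest the mutants. Kcnh1, of the ether-a-go-go group, stood at 4.49, 4.35, 4.11 and 4.42 in mutants, against 3.88, 4.03, 3.94 and 3.76 in controls, a rise of 0.44 (SE 0.12, adjusted p = 0.0341). Its groups were apart too, though less widely. Kcnip4, which binds channels of the Kcnd family and slows their inactivation, stood at 4.22, 4.67, 4.06 and 4.25 in mutants, against 4.78, 4.88, 4.64 and 4.53 in controls, a change of -0.41 (SE 0.12, adjusted p = 0.0485). Here mutant 2 lay above 2 of the controls. In the GLP striatum Kcnh1 differed by 0.41 (adjusted p = 0.0958) with the groups apart.

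Some markers of other regions were higher in mutants in the G9a striatum, and others of the same lists were lower. The mean level of 5 cortex markers was 3.19, 3.14, 2.84 and 3.26 in mutants, against 2.32, 2.32, 3.17 and 2.14 in controls, so that control 3, the control nearest the mutants in Kcnc4, was level with them. Tbr1, of cortical projection neurons, averaged 2.40 in mutants and 0.41 in controls, Neurod6, listed here for hippocampus, 1.26 and -1.62, and the interneuron peptide Vip 1.47 and -0.01. Lower in mutants were, among others, Prox1 of the hippocampus list (1.38 in mutants and 1.81 in controls), Rorb of the cortex list (2.24 and 2.61) and the interneuron marker Pvalb (4.96 and 5.17). Gad1, listed here with interneurons, was lower too (8.60 and 8.91). It averaged 10.1 in Drd1 and 9.42 in Drd2 control pools, so in striatum it does not mark interneurons alone. The median change of the tested markers was 0.56 for cortex, -0.28 for hippocampus and 0.17 for interneurons. Of the markers tested, 1 of 5 for cortex, 1 of 5 for hippocampus and 1 of 7 for interneurons were called higher, while 0 of 7 for striatum were called. The striatum markers had means of 6.99 to 7.19 in mutants and 7.20 to 7.29 in controls. In control mice Kcnc4 averaged 4.80 in cortex and 2.46 in striatum and Kcnh1 4.22 and 3.75, while Kcna4 averaged 4.28 and 5.64, and Kcna6 2.13 and 2.16. The part of the markers in the changes of Kcna4, Kcnc4, Kcnh1 and Kcnip4 was not tested. Without control 3 the change was 1.00 for Kcna6, 1.05 for Kcnc4 and -0.50 for Kcna4, all called, and 0.45 for Kcnh1 and -0.43 for Kcnip4, neither called (adjusted p = 0.0579 and 0.0693). In the GLP striatum the cortex markers overlapped, at 2.15 to 3.88 in mutants and 2.49 to 3.15 in controls.

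**Figure D2:**
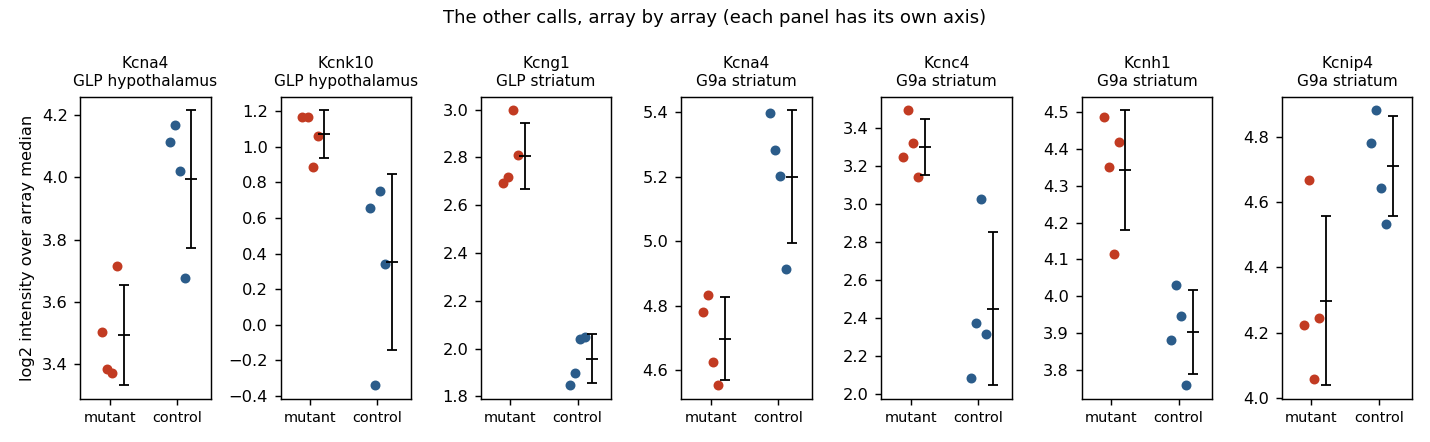
Levels (log2 intensity over the array median) of the called genes other than Kcna6, 1 panel per gene and tissue, mutants in red left of controls in blue, 1 point per array with the mean ± SD. Kcna4 in the GLP hypothalamus and Kcnip4 in the G9a striatum overlap between groups, and the other 5 panels do not.

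The calls other than those of Kcna6 were lost without some single arrays. Leaving out 1 of the 8 arrays in turn, the G9a striatum had 1 to 3 channel genes called in place of 5, and Kcna6 was called each time. Kcna4 lost its call under 4 of these, Kcnc4 under 5 and Kcnh1 and Kcnip4 under 6 each. In the GLP hypothalamus Kcna4 and Kcnk10 lost theirs under 5 each, and in the GLP striatum Kcng1 under 3. A second probe set of Kcna4 was also called lower in the G9a striatum when fitted singly (-0.73, adjusted p = 0.021). The second probe set of Kcnc4 differed by 0.71 there (adjusted p = 0.084) and that of Kcnh1 by 0.09 (adjusted p = 0.948). Fitted singly, the Kcnip4 probe set used here was not called in any tissue, while another of its probe sets was called lower in 2. Probe sets not used here of Kcnd2 and Kcnq3 were called lower in 1 tissue each. Which channel genes are called thus depends in part on the probe set read.

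No channel gene was called in the GLP hippocampus (0 of 51, where 2.05% of all genes were called, 1.73% higher and 0.317% lower), the G9a hypothalamus (0 of 54, where 2.34% were, 1.59% higher and 0.75% lower) or the G9a cortex (0 of 56, where 0.728% were, 0.625% higher and 0.103% lower). At an unadjusted p under 0.05 these 3 tissues had 4, 12 and 1. Kcne2 and Kcnj13, left out of the channel genes here, were read as choroid plexus markers. In the GLP hippocampus Kcne2 averaged 3.56 in mutants and 0.04 in controls, and Kcnj13 5.80 and 2.57. Of the 10 choroid plexus markers tested there, 9 were called higher. The smallest p in the GLP hippocampus after Kcna6 belonged to Kcng2, a silent subunit, and Kcnn2, a small-conductance calcium-activated channel, at -0.52 and -0.44 (adjusted p = 0.235 and 0.253). Kcna4 and Kcng2 came next in the G9a hippocampus, at -0.44 and -0.54 (adjusted p = 0.0826 and 0.193). In the GLP cortex they were Kcnip4 at 0.29 and Kcnip1 at 0.41 (adjusted p = 0.49 and 0.583), and in the G9a cortex Kcnu1 at 0.46 and Kcna4 at -0.33 (adjusted p = 1 for both).

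The G9a hypothalamus depended on 1 array. With all arrays the smallest p were those of Kcnh8 (-0.71), Kcnf1 (0.55) and Kcnh1 (0.35), none called (adjusted p = 0.0652, 0.0823 and 0.121). Kcnf1, a silent subunit, stood at 4.65, 3.19, 4.64 and 4.42 in mutants, against 3.82, 3.52, 3.73 and 3.64 in controls: 3 mutants above every control and mutant 2 below them all. Without mutant 2, which also correlated least with its group, 17.4% of all genes were called and 8 channel genes. Of these Kcnf1 (0.89), Kcnk3 (0.70), Kcnc4 (0.64), Kcnh1 (0.40), Kcnj11 (0.33) and Kcnip2 (0.33) were higher in mutants, and Kcnh8 (-0.94) and Kcnab1 (-0.36) lower. The highest adjusted p among them was 0.0476, for Kcnip2.

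**Figure D3:**
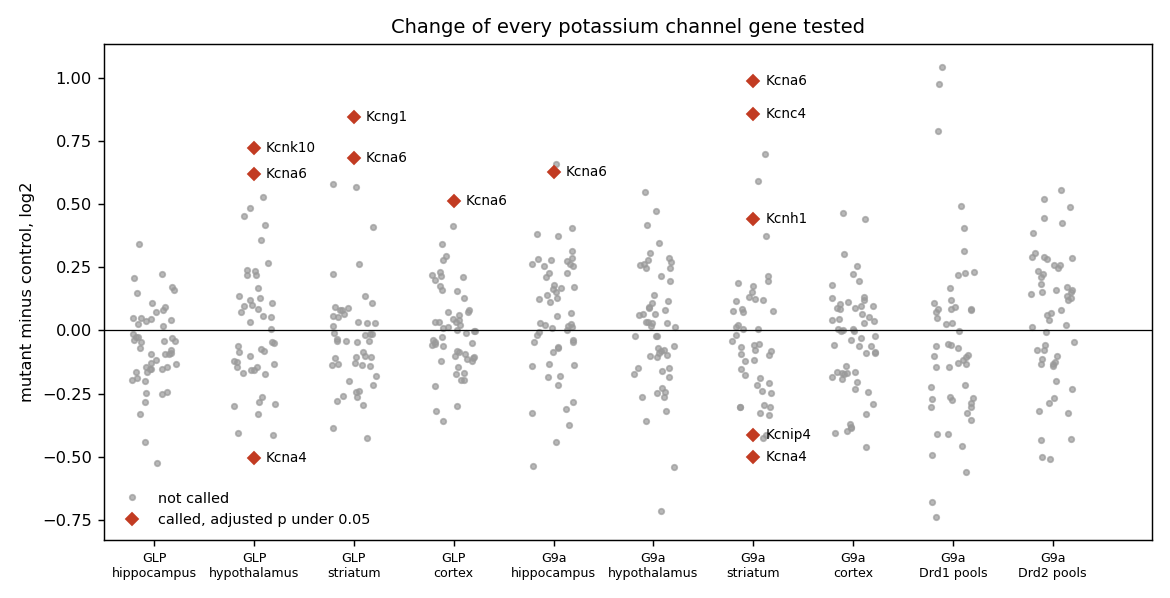
Change (mutant minus control, log2) of every tested potassium channel gene in the 10 mutant comparisons, 1 point per gene spread sideways for legibility; red diamonds with names passed an adjusted p of 0.05. Named points are few, and Kcna6 is the highest called gene in the G9a striatum at 0.99.

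Over the tested channel genes the median change lay between -0.07 and 0.06 in the 8 tissues, where the median of all genes lay between -0.02 and 0.03. Of the 46 tested in all 8 tissues, 4 were higher in mutants in every tissue (Kcna6, Kcnh1, Kcnk3 and Kcnk6) and 5 lower in every tissue (Kcna1, Kcna4, Kcnab1, Kcnj3 and Kcnq5), where 3.31% and 3.26% of all such genes were. Mean changes over the 8 tissues were -0.33 for Kcna4, -0.29 for Kcnj3, a G-protein-gated inward rectifier, -0.18 for Kcna1 and -0.15 for Kcnab1, the cytoplasmic beta subunit of Shaker channels. They were 0.21 for Kcnh1, 0.21 for the acid-sensitive 2-pore channel Kcnk3 and 0.17 for Kcnk6. Of these only Kcna4 and Kcnh1, beside Kcna6, were called in any tissue. All calls but 2, Kcnk10 and Kcnip4, were of voltage-gated genes, and Kcna6 alone gave 5 of them. Among the channel genes kept here, no inward rectifier and no calcium- or sodium-activated channel was called in a tissue with all arrays in the fit. Kcnj13, by symbol an inward rectifier, was left out of them. It averaged 5.80 in GLP hippocampus mutants and 2.57 in controls. A tissue had 19 to 24 voltage-gated genes tested, 6 to 8 inward rectifiers and 6 calcium- or sodium-activated genes, and 0.728% to 3.02% of all genes were called. With so few tested, these counts do not set the families apart.

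In the pools labelled as lacking G9a, 0 of 52 channel genes were called in Drd1 neurons (0.0249% of all genes; 0 at an unadjusted p under 0.05) and 0 of 54 in Drd2 neurons (0.0165%; 0). Kcna6 stood at 3.98, 4.28 and 4.41 in Drd1 mutants and 3.35, 4.04 and 3.81 in controls, and at 3.73, 3.95 and 3.50 in Drd2 pools labelled mutant and 3.84, 2.97 and 3.04 in controls. The groups overlap in both, with differences of 0.49 (SE 0.30) and 0.45 (SE 0.31). In Drd1 neurons the smallest p were those of Kcnmb4os2 (0.97) and Kcnt2, a sodium-activated channel (1.04, adjusted p = 0.943 for both), and without Drd1 mutant 2 these were 0.20 and 0.38. In Drd2 neurons they were Kcnj4 (-0.50), Kcnk2 (-0.43) and Kcne4 (0.42, adjusted p = 1 for all). The Drd1 change differed from the Drd2 change for 0 of 56 (0% of all genes; 0 at an unadjusted p under 0.05), Kcnj4, Kcng4 and Kcnd3 having the smallest p.

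Genes that work with these channels were read from a list of 22 partners, 19 of them on the arrays, such as auxiliary subunits, sulphonylurea receptors, axonal organisers and the related Hcn channels. In the GLP striatum 2 of 16 tested were called, where 1.67% of all genes were: Dpp10, an auxiliary subunit of Kcnd channels, fell by 0.58 (SD 0.33 in mutants and 0.13 in controls, adjusted p = 0.02), and Cntnap2, which clusters Shaker channels on axons, rose by 0.30 (adjusted p = 0.0323). In the G9a hippocampus 1 of 16 was called, where 2.72% of all genes were: Dpp10, which rose by 0.63 (adjusted p = 0.014). None of the 16 or 17 tested was called in the other 6 tissues or in either kind of pool.

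The same genes differ between regions of the control brain. Each region was compared with the mean of the other 3 over the controls of both enzymes, with the 2 control sets weighted equally within a region. The probe sets of highest mean signal over all arrays were those of Kcnd2, the A-type channel of dendrites, Kcna2, Kcnab1, Kcna1, Kcnk1, Kcnq3, Kcnk2 and Kcnip2, with means of 5.49 to 6.55; signals of different probe sets do not rank transcripts. The cortex was the region of highest mean for 24 of 59 genes above the array median in at least 1 region, and the lowest for 4, and of all such genes it was the highest for 19.9% and the lowest for 34%. The hypothalamus was the highest for 10 and the lowest for 26 (30.1% and 31.8% of all such genes). The striatum was the highest for 16 and the lowest for 20 (24.3% and 19.1%), and the hippocampus for 9 and 9 (25.7% and 15%).

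In the hypothalamus 51 of 56 channel genes were called (76.0% of all genes), 17 higher (36% of all genes) and 34 lower (40%), with a median difference of -0.54 where that of all genes was -0.02. Kcnv1, a silent subunit, was lowest there: its median was -0.26 (range -1.46 to 0.27) in hypothalamus, against 2.95 in hippocampus, 3.11 in striatum and 4.04 in cortex. No hypothalamus array reached those of another region, a difference of -3.74 (SE 0.14, adjusted p = 1.1e-28, at least 10.3-fold lower, taking the array median as the level in hypothalamus). Kcng1 (at least 4.26-fold), Kcnip2 (8.11-fold), which binds Kcnd channels, Kcnq5 (5.41-fold), of the M-current family, and Kcnj4 (at least 1.28-fold), a strong inward rectifier, were also lower with no overlap. The largest positive differences were those of Kcnj5, a G-protein-gated rectifier (2.18, at least 1.61-fold), Kcnip1 (1.80) and Kcnj16 (1.51). Kcnip1 stood at a median of 4.29 in hypothalamus, against 2.38 in hippocampus, 2.28 in striatum and 2.90 in cortex. They were followed by Kcnk3 (1.04), Kcnip4 (0.88), Kcnh2 (0.72), Kcnc4 (0.62) and the glial rectifier Kcnj10 (0.57). The GLP and G9a control sets differed: Kcnc4 was -0.03 within GLP controls and 1.26 within G9a controls, and Kcnh2 0.01 and 1.43. All GLP controls were high in Xist, while the G9a controls held both kinds and those of cortex were all low. The part of sex in differences between the control sets was not tested.

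In the cortex 43 of 58 were called (67.8% of all genes), 34 higher (26.4% of all genes) and 9 lower (41.4%), with a median of 0.36 where that of all genes was -0.10. Kcnma1, the large-conductance calcium-activated channel, had a median of 5.70 (range 5.50 to 5.77) in cortex, against 3.30 in hippocampus, 2.95 in hypothalamus and 2.95 in striatum. All cortex arrays lay above all others, by 2.78 (SE 0.11, adjusted p = 5.38e-26). Kcnk12 (3.19, at least 1.34-fold), the G-protein-gated rectifier Kcnj9 (2.43), Kcnh5 (2.19, at least 1.95-fold), Kcnv1 (2.08), Kcnf1 (2.03), Kcnmb4os2 (at least 2.77-fold) and Kcnh1 (1.43) were higher as well. The largest negative differences were smaller: Kcnk13 (-0.80), Kcnj5 (-0.79, dim on both sides), Kcnk2 (-0.71), Kcne4 (-0.55) and Kcnab1 (-0.51). Within GLP and within G9a controls Kcnk12 differed by 4.26 and 2.11, Kcnk13 by -0.32 and -1.28, and Kcnk2 by -0.22 and -1.19.

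In the striatum 47 of 56 were called (64.3% of all genes), 23 higher (36% of all genes) and 24 lower (28.3%). Kcnab1 had a median of 7.74 (range 7.64 to 7.99) in striatum, against 6.29 in hippocampus, 4.32 in hypothalamus and 5.70 in cortex. The difference was 2.33 (SE 0.07, adjusted p = 4.71e-34) with no overlap. Kcna5 (5.65-fold), the stretch-sensitive 2-pore channel Kcnk2 (1.94), Kcnip2 (1.91), Kcna4 (1.58) and Kcnt1 (1.44), a sodium-activated channel, were likewise higher with no overlap, followed by Kcnj4 (1.33, at least 1.69-fold) and Kcnk13 (2.30-fold). Kcnc4 (-2.25), Kcnk12 (-2.14, dim on both sides), Kcnj3 (-1.81), Kcnc2 (-1.65), a subunit of fast-spiking cells, and Kcnt2 (-1.47) were lower. Among regions the striatum had the highest mean of Kcna4 and the lowest of Kcnc4.

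In the hippocampus 39 of 57 were called (62.4% of all genes), 24 higher (38.8% of all genes) and 15 lower (23.7%), a split of 18 and 18 after quantile normalization. Kcng2 lay above the array median in the hippocampus alone, with a median of 0.85 (range 0.64 to 1.45), against -3.33 in hypothalamus, -3.42 in striatum and -1.86 in cortex. The difference was 3.71 (SE 0.12, at least 1.93-fold, adjusted p = 3.71e-31). Kcna5 was lowest here, with a median of 0.10 against 2.88 in hypothalamus, 4.43 in striatum and 2.79 in cortex (-3.28, SE 0.11, adjusted p = 6.82e-31). Kcnab2 (1.81), Kcng1 (1.24), Kcnk10 (at least 2.13-fold), Kcnn2 (1.18), Kcnj3 (1.13), Kcnmb4 (0.93) and Kcnk12 (0.88, dim on both sides) were higher, and Kcnt1 (-1.38), Kcnh2 (2.0-fold), Kcnma1 (-0.95) and Kcnj5 (-0.86, dim on both sides) lower. The GLP and G9a control sets differed here too, by 0.22 and 1.55 for Kcnk12, -0.49 and -1.50 for Kcnh2, and -0.42 and -1.48 for Kcnma1. With the mean of its probe sets Kcnma1 turned to 0.0064. Kcna6 itself varied little: 2.04 ± 0.14 in hippocampus (SD, n = 7), 2.46 ± 0.13 in hypothalamus (n = 8), 2.16 ± 0.08 in striatum (n = 8) and 2.13 ± 0.14 in cortex (n = 6). It was called higher in hypothalamus (0.36, adjusted p = 1.22e-06) and lower in hippocampus (-0.22, adjusted p = 0.00387).

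**Figure D4:**
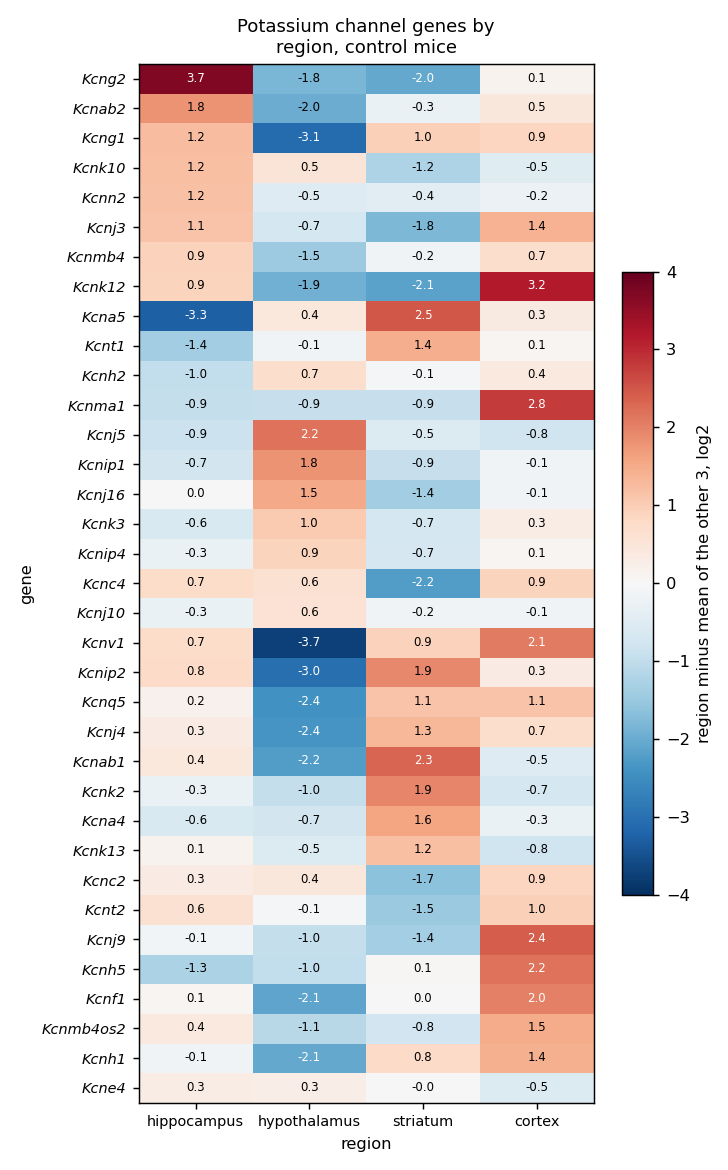
Fitted difference of each region from the mean of the other 3 regions in control mice (log2, red higher, blue lower, value in each cell) for the 35 channel genes named in the regional comparisons. Kcng2 stands out in the hippocampus, Kcnv1 and Kcng1 are low in the hypothalamus, Kcna5 and Kcnab1 high in the striatum, and Kcnk12 and Kcnma1 high in the cortex.

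The Drd1 and Drd2 control pools differed in 4 of 54 channel genes, where 15.4% of all genes were called, 1 higher (7.7% of all genes) and 3 lower (7.65%). Kcnip4 stood at 6.27, 6.02 and 5.72 in Drd1 pools, against 3.34, 5.35 and 4.42 in Drd2 pools (1.63, SE 0.43, adjusted p = 0.0245). The groups were apart, but the Drd2 pools scattered, and without Drd2 control 1 the difference was 1.12 (adjusted p = 0.062). The call was also lost without any one of 4 of the other 5 pools. Kcnj8, a rectifier of ATP-sensitive channels best known in vessel walls, stood at -0.91, -1.98 and -1.69 in Drd1 pools, against 0.12, 0.12 and 0.16 in Drd2 pools. It was lower by a log2 difference of -1.66 (at least 1.10-fold, adjusted p = 0.000994). Kcnj14 and Kcna7 were lower too, by -1.59 (at least 1.24-fold, adjusted p = 0.00254) and -1.19 (at least 2.07-fold, adjusted p = 0.00591). With levels under the array median raised to it, Kcnj8 differed by -0.13 (adjusted p = 0.398) and Kcnj14 by -0.31 (adjusted p = 0.256). Of the vessel markers 1 of 5 was called lower in the Drd1 pools, and of the choroid plexus markers 3 of 7 were called higher. Their part in these differences was not tested. Of the Drd1 neuron markers 3 of 5 were called higher in the Drd1 pools, and of the Drd2 neuron markers 3 of 3 lower. The transcript of Drd1 itself averaged 8.11 in Drd1 control pools and 8.46 in Drd2 control pools.

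Against whole striatum of G9a controls, most genes of any kind were higher in the pools: the median over all genes was 0.63 for Drd1 and 0.60 for Drd2, and 0.06 and 0.04 after quantile normalization. The channel genes had medians of 0.54 and 0.43. In Drd1 pools 35 of 53 were called (71.9% of all genes), 30 higher (57.8%) and 5 lower (14.1%), a split of 11 and 15 after quantile normalization. In Drd2 pools 29 of 54 were called (68.3% of all genes), 27 higher (59%) and 2 lower (9.22%), a split of 15 and 13. The differences below are given with that of quantile-normalized values after them.

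Kcnj8 was the gene most reduced in both, by -3.30 in Drd1 pools (quantile -3.92, at least 3.41-fold) and -1.63 in Drd2 pools (quantile -1.97). Striatum controls stood at 1.91, 1.87, 1.63 and 1.66. Vessel markers had a mean level of 0.76 ± 0.10 in Drd1 pools, 1.46 ± 0.12 in Drd2 pools (n = 3 each) and 3.50 ± 0.08 in striatum (SD, n = 4), 5 of 5 and 4 of 5 called lower; their part in the Kcnj8 difference was not tested. Kcnj10 was lower in Drd1 pools by -0.57 (quantile -1.16), and 4 of 5 astrocyte markers were called lower there. In Drd2 pools Kcnj10 differed by -0.15 (quantile -0.80), and 3 of 5 astrocyte markers were called lower. Of 5 oligodendrocyte markers 3 were called lower and 1 higher in Drd1 pools, and 1 lower and 1 higher in Drd2 pools. Kcne4 (-0.54, quantile -0.92) and Kcnip3 (-0.46, quantile -0.96) were also lower in Drd1 pools. Kcnip3 was lower in Drd2 pools too (-0.47, quantile -0.95), a difference of 0.035 without Drd2 control 1. Kcnh1 stood at 2.61, 2.71 and 2.93 in Drd1 pools, against 3.88, 4.03, 3.94 and 3.76 in striatum, lower by -1.15 (quantile -1.57). Drd2 pools stood at 3.52, 3.88 and 4.07, a difference of -0.08. After quantile normalization it was -0.59 in Drd2 pools (limma adjusted p = 0.0022).

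Kcnmb4os2 was at least 3.74-fold higher in Drd1 pools and at least 3.32-fold in Drd2 pools, and Kcnh8 at least 1.15-fold and 1.14-fold, since both lay under the array median in striatum. Kcna6 stood at 3.35, 4.04 and 3.81 in Drd1 pools and 3.84, 2.97 and 3.04 in Drd2 pools, all above the striatum at 2.25, 2.15, 2.19 and 2.07. The difference was 1.57 in Drd1 pools (quantile 1.03, adjusted p = 6.88e-14) and 1.12 in Drd2 pools (quantile 0.61). Also higher in Drd1 pools were Kcnu1 (1.54, quantile 1.09), Kcnj11, the pore of neuronal ATP-sensitive channels (1.49, quantile 0.92), Kcng1 (1.38, quantile 0.85), Kcnab3 (1.35, quantile 0.92) and Kcnma1 (1.32, quantile 0.78). In Drd2 pools they were Kcnc4 (1.91, quantile 1.32), Kcnc1 (1.53, quantile 0.85), Kcng1 (1.45, quantile 0.92), Kcns2 (1.41, quantile 0.74), Kcnj14 (at least 1.24-fold) and Kcnma1 (1.32, quantile 0.78). With the mean of its probe sets Kcnma1 turned to -0.59 in Drd1 and -0.49 in Drd2 pools.

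**Figure D5:**
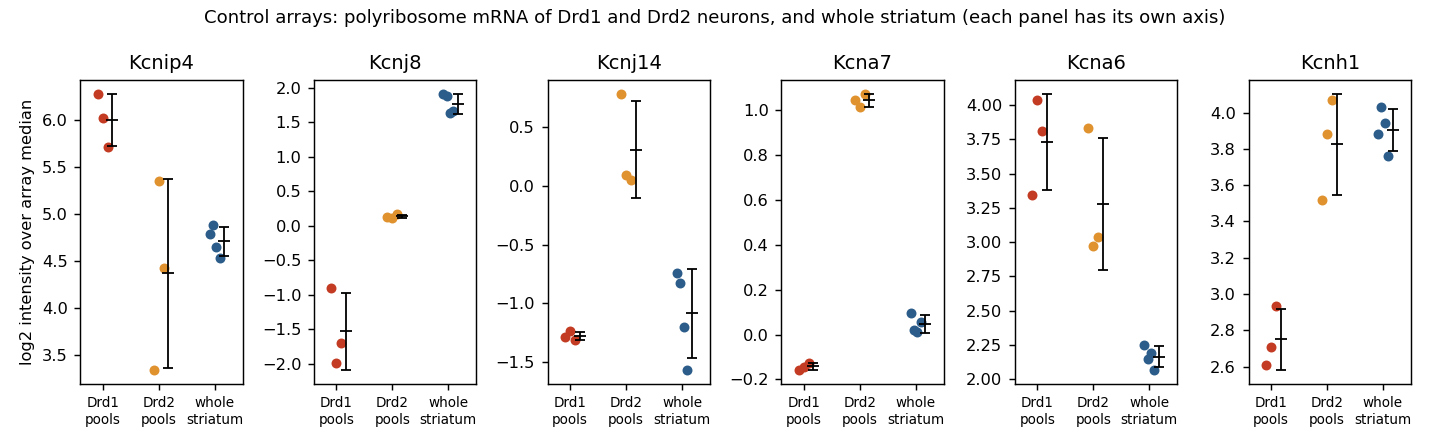
Levels (log2 intensity over the array median) of 6 channel genes in control Drd1 pools, control Drd2 pools and whole striatum of G9a controls, 1 point per array with the mean ± SD; each panel has its own axis. Kcnj8 has its 3 groups apart, lowest in Drd1 pools. On these values, which are not quantile-normalized, Kcnh1 lies below the striatum in Drd1 pools and overlaps it in Drd2 pools. Kcna6 is above the striatum in both kinds of pool.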

How the data were processed

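The deposited table holds 1 intensity per probe set (45101) and array (71). Per the submitters' processing notes these intensities were made with GCRMA (version not given in the sources used here); each array's median was 1 and the lowest value 0.0271. Per the labels' protocols, RNA was amplified in 2 cycles. Groups came from titles, and the labels call replicates biological. The extraction protocol gives an age of 12 weeks for tissue donors.

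From the deposited intensities log2 values were taken with no floor. Platform annotation gave 34945 probe sets exactly 1 symbol. limma 3.58.1 (R 4.3.3) fitted the 16 tissue groups, the 4 pool groups, and all 20 for pools against striatum, with an intensity trend and Benjamini-Hochberg adjustment. P-values measure the spread between arrays pooled over groups. The fit was tried on simulated data with independent normal noise, for some of the mutant comparisons. That simulation holds no outlying arrays and none that deviate together, so it cannot test their effect.

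Same-numbered arrays deviated together in every pair (r 0.16 to 0.48) only between Drd2 pools labelled mutant and controls, among mutant comparisons; with number as a block 0 channel genes were called there too. Between control regions every pair did so (r over 0.1) in GLP hippocampus with striatum and cortex, GLP hypothalamus and striatum with cortex, and G9a hypothalamus with striatum.

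Named were, per mutant comparison or interaction, up to 10 called genes, or the 3 smallest p where under 3 were called; per other comparison, up to 8 largest positive and 5 largest negative called differences; the 8 brightest; and called partners. Members, lists and tests were chosen with earlier results of these data known. Genes named for direction in all 8 tissues or without an array were chosen after their values were seen. Alternatives were a floor at the array median, no filter, quantile normalization, compared groups alone, the mean of all probe sets, the block, each array left out, and, chosen after seeing the data, controls of 1 enzyme, probe sets singly and arrays split by Xist. A double-mutant genotype in the protocols was not analysed here.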

Additional observations from a re-analysis of the deposited data

Results flagged for a closer look

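The change of Kcna6 on loss of G9a differed among the 4 regions (F = 8.30), by the moderated F test of the difference itself; the changes were 0.63 in hippocampus, 0.26 in hypothalamus, 0.99 in striatum and 0.44 in cortex. The call was lost without striatum mutant 2 (adjusted p = 0.0638) and with the G9a groups alone in the fit (adjusted p = 0.183). The cortex arrays were all low in Xist, and the part of sex was not tested. In 43 checks of groups of 4 arrays for the genes named in mutant comparisons, 2 had 1 array far from the other 3 by Dixon's test, about as many as chance flags at 1 in 20. Kcnf1 in G9a hypothalamus mutant 2 stood at 3.19, with the other mutants at 4.42 to 4.65. Kcnip4 in GLP cortex control 4 stood at 5.58, with the other controls at 5.50 to 5.51.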

How the results depend on the processing

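The counts of called channel genes that moved were as follows. With only the compared groups in the fit they were 0 in the GLP hypothalamus, 3 in the GLP cortex, 3 in the G9a cortex, 7 between Drd1 and Drd2 pools, 2 across GLP regions and 0 across G9a regions. With the mean of all probe sets they were 1 in the GLP hypothalamus, 0 in the GLP striatum, 0 in the GLP cortex, 0 in the G9a hippocampus, 2 in the G9a hypothalamus, 9 between pools and 1 across GLP regions. Raising every value under 0 to 0 gave 1 in the GLP hippocampus, 2 in the G9a hippocampus, 1 in the G9a hypothalamus, 1 in the G9a cortex, 2 between pools and 2 across GLP regions. Quantile normalization gave 1 in the G9a hypothalamus and 1 across GLP regions. With no filter there were 2 in the G9a hippocampus, 18 between pools, 58 in Drd1 and 46 in Drd2 pools against striatum. A replicate block gave 2 across GLP regions, and moved no other count by over 1.5 times. The cause was not tested.

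Leaving out each array in turn gave 1 to 3 in the GLP hypothalamus, 1 to 2 in the GLP striatum, 1 to 2 in the G9a hippocampus, 0 to 8 in the G9a hypothalamus (8 without mutant 2), 1 to 3 in the G9a striatum, 0 to 1 across GLP regions, 0 to 4 across G9a regions, 37 to 40 in hippocampus, 48 to 53 in hypothalamus, 46 to 49 in striatum, 39 to 45 in cortex, 3 to 4 between pools, 27 to 35 and 26 to 29 against striatum.

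The mean of all probe sets reversed Kcna6 in the GLP cortex (-0.014) and Kcnma1 in the hippocampus (0.0064) and in Drd1 (-0.59) and Drd2 pools (-0.49). Kcnc4 in hypothalamus reversed within GLP controls (-0.034), and Kcnip3 in Drd2 pools without control 1 (0.035, and -0.78 without control 3).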
